A study of Mus musculus with 3 samples.

Results

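The 7 transcription factors followed here steer CD8 T cell differentiation: the T-box factors Eomes and Tbx21, the HMG-box factors Tox and Tox2, Prdm1, which encodes Blimp-1, and Bhlhe40 and Zeb2. They were taken by name, as every probe set whose platform annotation gives 1 of these symbols alone. This gave 15 of the 45101 probe sets and 7 of the 18194 named genes: 5 probe sets for Zeb2, 3 for Tox, 2 each for Eomes and Tox2, and 1 each for Tbx21, Prdm1 and Bhlhe40.

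The 3 groups are mouse CD8 T cells labelled as coming from the MLN (in the study, the mesenteric lymph node), with 1 array each. The CL4-TCR group carries a transgenic T cell receptor for hemagglutinin (HA), an influenza virus surface protein, and so do the other groups. VILLIN-HA/CL4-TCR, like Villin-HA + CL4-TCR, joins this receptor with HA under the villin promoter, which is active in gut epithelial cells. The series lists ordinary, activated and regulatory CD8 T cells, and the labels do not say which HA array is the activated and which the regulatory population, nor how the + combination differs from the / one. Strain, age, the number of pooled animals and the sort were not stated in the sources used here.

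T-bet, the product of Tbx21, and Eomes are related DNA-binding proteins. T-bet is induced by T cell receptor and cytokine signals and favours short-lived effector cells, while Eomes is known for memory and for cells under long antigen exposure. Blimp-1 and Zeb2 are transcriptional repressors that promote terminal effector differentiation, and Blimp-1 also acts in tissue-resident cells. Tox and Tox2 are induced by sustained receptor signals and are known from exhausted T cells, and Bhlhe40 is a basic helix-loop-helix repressor induced on activation.

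The sequence just before the start site is shown for the T-box pair, whose levels differed from CL4-TCR in opposite directions, and for Prdm1, which was high on 1 array only. RefSeq promoter windows (GRCm38.p6) were found for 5 of the 7 genes: Eomes, Tbx21, Tox2, Prdm1 and Zeb2. Each line gives the 250 bases upstream of a RefSeq start site, 5′ to 3′ on the strand of the gene. The windows lie at chr9:118477939-118478188 on the + strand for Eomes, chr11:97115332-97115581 on the - strand for Tbx21 and chr10:44458749-44458998 on the - strand for Prdm1. Capitals mark matches to any of the motifs named after the sequences.
Eomes: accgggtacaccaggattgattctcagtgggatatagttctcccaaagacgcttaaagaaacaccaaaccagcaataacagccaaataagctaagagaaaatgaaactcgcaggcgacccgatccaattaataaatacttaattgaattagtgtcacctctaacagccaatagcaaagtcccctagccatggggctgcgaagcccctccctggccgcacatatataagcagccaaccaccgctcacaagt
Tbx21: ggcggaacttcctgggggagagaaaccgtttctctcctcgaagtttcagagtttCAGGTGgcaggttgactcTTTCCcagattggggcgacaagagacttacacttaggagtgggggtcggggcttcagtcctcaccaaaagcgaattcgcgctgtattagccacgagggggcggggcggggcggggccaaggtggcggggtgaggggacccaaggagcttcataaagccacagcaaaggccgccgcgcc
Prdm1: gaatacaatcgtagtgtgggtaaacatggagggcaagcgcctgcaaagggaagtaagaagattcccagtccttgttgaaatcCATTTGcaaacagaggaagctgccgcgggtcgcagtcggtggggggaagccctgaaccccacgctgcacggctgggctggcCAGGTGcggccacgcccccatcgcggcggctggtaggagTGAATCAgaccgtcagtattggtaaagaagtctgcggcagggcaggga

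The E-box motifs searched, on both strands, were CANNTG and its forms CACGTG and CACCTG (each also a match to CANNTG). The others, also on both strands, were the T-box core GTGTGA, the AP-1-like pattern TGANTCA, the NFAT core GGAAA and the Blimp-1 core AGNGAAAG. N stands for any base. The Tbx21 window held a CACCTG E-box starting at -196 from the start site and an NFAT core at -178. The Prdm1 window held E-boxes at -168 and -87, the latter of the CACCTG form, and a match to the AP-1-like pattern, TGAATCA, at -48. The Eomes window held no match to any of these letters. Of 32851 RefSeq windows of this length, 66.2% held CANNTG, 6.02% CACGTG, 17.2% CACCTG, 12.3% GTGTGA, 6.75% TGANTCA, 55.6% GGAAA and 7.3% AGNGAAAG. A match is a stretch of letters and not a measured binding site.

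The values are MAS5 signals on a linear scale, and each probe set is compared with itself across arrays only. Signals under a floor of 31.7, the median of all values, were raised to it. A gene or probe set was measured in a comparison if its higher signal lay above the floor. It was called where the arrays were 2-fold or more apart, which is 1 on the log2 scale. Where the lower signal was at the floor, the fold is given as at least that size. With no replicate, each difference is between single arrays and has no test. Ranks and medians count such bounded differences at their bound. The only error the files hold is the spread between probe sets of 1 gene, a pooled SD on the log2 scale of 0.43 between VILLIN-HA/CL4-TCR and the array without HA, 0.65 between Villin-HA + CL4-TCR and the array without HA, and 0.61 between the HA arrays. In such bulk RNA, more cells with a transcript and more RNA per cell cannot be told apart.

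The arrays differed in other ways that move with the groups. The trimmed mean is the same on each, and the 7 CD8 T cell markers found (Cd8a and Ptprc among them) all lay within 2-fold on all arrays, while Cd4 was below the floor. The Gapdh control probe sets had 3′ to 5′ signal ratios of 18.4 in CL4-TCR, 46.2 in VILLIN-HA/CL4-TCR and 3.35 in Villin-HA + CL4-TCR. Xist, expressed from the inactive X chromosome of females, had signals of 5442.5, 2.5 and 1339 in that order, and the Y-linked Eif2s3y had 13.4, 1496 and 746.9, so sex-linked transcripts moved with the groups as well. The summed signal of 11 macrophage and dendritic cell markers was 304.6, 1590.5 and 1200.5 in the same order. The Villin-HA + CL4-TCR array had all 5 neutrophil markers above the floor (0 on each other array), with sums of 79.1, 65.7 and 1530.8 in that order. It had all 6 skeletal muscle markers above it (0 and 2 on the others), with sums of 79.9, 109.4 and 4944.1, and 5 of 8 stromal and endothelial markers (1 and 0 on the others), with sums of 109, 99.5 and 847.6. The part of these differences in the results was not tested.

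Among the members, 4 of 7 genes (Eomes, Tbx21, Tox and Tox2) were above the floor on all 3 arrays by their brightest probe set, which stands for the gene. Of the 15 probe sets, 6 were above it on all arrays, 11 on at least 1, and 4 on none, all of these for Zeb2. The panels of signal by array show these patterns.

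**Figure D1:**
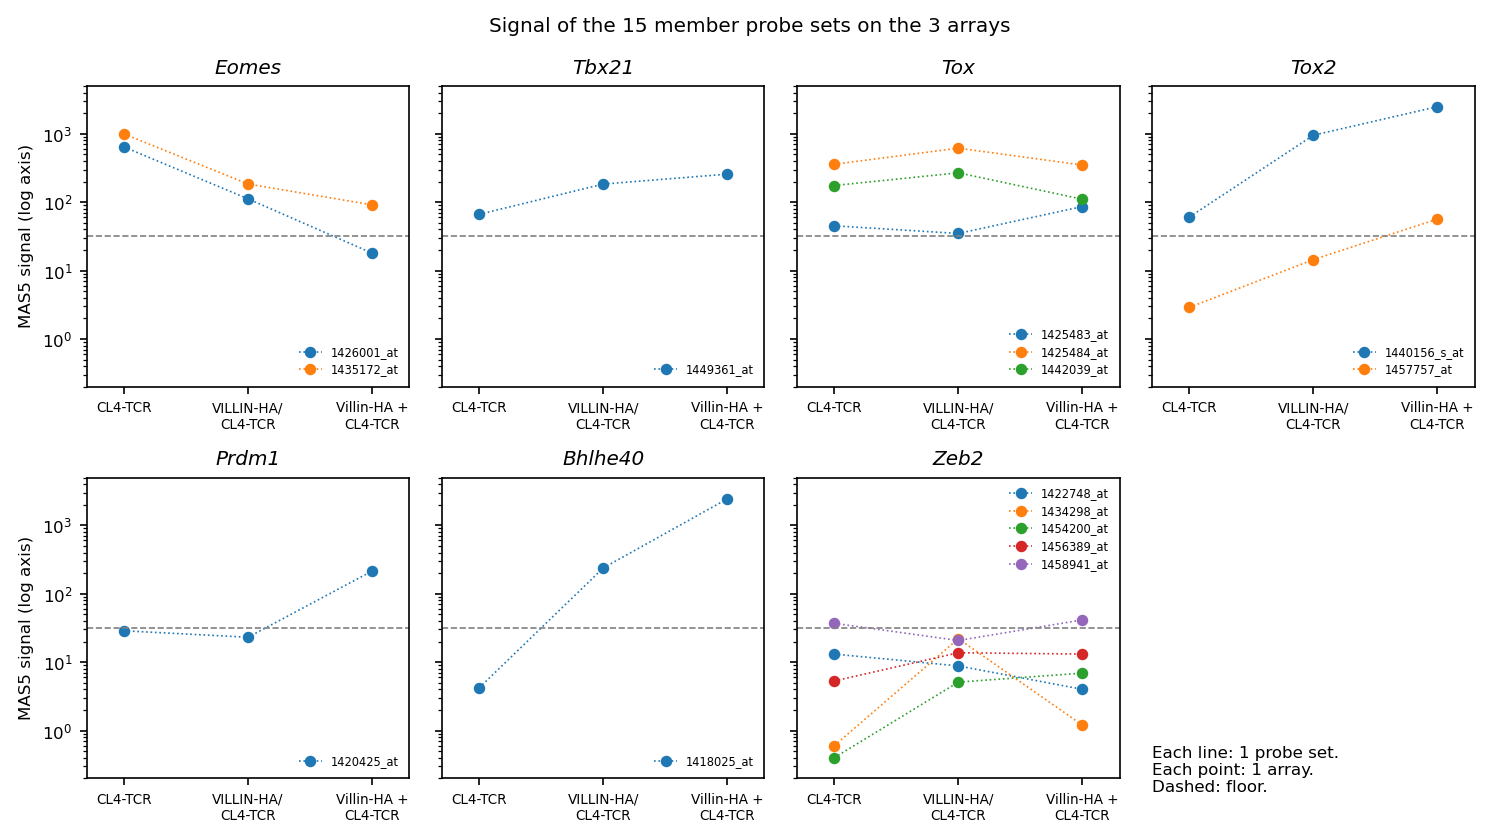
MAS5 signal (log axis) of the 15 probe sets of the 7 genes on the 3 arrays, CL4-TCR, then VILLIN-HA/CL4-TCR, then Villin-HA + CL4-TCR. Each point is 1 array, dotted lines join the points of 1 probe set and do not imply an order of the groups, and the dashed line is the floor of 31.7. Eomes is highest in CL4-TCR, Tbx21, Tox2 and Bhlhe40 are lowest there, and Prdm1 is above the floor in Villin-HA + CL4-TCR alone.

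The T-box pair differed from CL4-TCR in opposite directions. Probe set 1435172_at of Eomes had signals of 992.6 in CL4-TCR, 184.6 in VILLIN-HA/CL4-TCR and 91.4 in Villin-HA + CL4-TCR. The CL4-TCR array was thus the highest and the HA arrays both lay below it. Against CL4-TCR, Eomes was 5.38-fold lower in VILLIN-HA/CL4-TCR and 10.9-fold lower in Villin-HA + CL4-TCR. In the latter comparison it was the 10th most reduced of 12196 measured genes, and in the former the 36th of 11260. The other Eomes probe set, 1426001_at, had signals of 642, 111.9 and 18 in the same array order. It gave differences of 5.74-fold lower and at least 20.3-fold lower. Both Eomes probe sets thus lay past 2-fold on both HA arrays.

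Tbx21, which has 1 probe set, had signals of 66.5 in CL4-TCR, 184.1 in VILLIN-HA/CL4-TCR and 257.2 in Villin-HA + CL4-TCR. The lowest value was in CL4-TCR. The gene was 2.77-fold higher in VILLIN-HA/CL4-TCR and 3.87-fold higher in Villin-HA + CL4-TCR. The HA arrays differed by 1.40-fold, a log2 difference of -0.48 (positive where VILLIN-HA/CL4-TCR is higher), which is smaller than the SD of 0.61 between probe sets of 1 gene. Their order for Tbx21 is therefore not set by these data. For Eomes the VILLIN-HA/CL4-TCR array was 2.02-fold above the Villin-HA + CL4-TCR array, just past the threshold, and at least 3.53-fold by the other probe set. The 5 markers of NK cells, which express both T-box genes, had summed signals of 93.7 in CL4-TCR, 187.7 in VILLIN-HA/CL4-TCR and 231.6 in Villin-HA + CL4-TCR. Of these, the signalling adaptor gene Tyrobp had 32.3, 71.6 and 99.2, which is 2.22-fold and 3.07-fold above CL4-TCR. Its lowest signal was thus in CL4-TCR, as for Tbx21. Gzmm, a granzyme gene, had 30.2, 66 and 30.2, at least 2.08-fold higher in VILLIN-HA/CL4-TCR, Fcer1g was above the floor in Villin-HA + CL4-TCR alone (51.9), and the receptor genes Ncr1 and Klra8 were below it on each array. The part of NK cells in the Tbx21 signal was not tested.

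Tox and Tox2 encode close relatives and behaved differently. Tox2 by probe set 1440156_s_at had signals of 60.7 in CL4-TCR, 953.4 in VILLIN-HA/CL4-TCR and 2495.1 in Villin-HA + CL4-TCR. It was low in CL4-TCR and high on both HA arrays, by 15.7-fold and 41.1-fold, and 2.62-fold lower in VILLIN-HA/CL4-TCR than in Villin-HA + CL4-TCR. In the first comparison it was the 25th most increased of 11260 measured genes. The suffix of this probe set says that it can match several transcripts. The other probe set, 1457757_at, had 2.9, 14.5 and 56.7, above the floor only in Villin-HA + CL4-TCR. There it was at least 1.79-fold above the CL4-TCR array, a lower limit set by the floor that neither reaches 2-fold nor excludes it. The call for Tox2 thus rests on the probe set that is not specific to 1 transcript.

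Tox itself, the better known of the pair in exhausted cells, was within 2-fold of the CL4-TCR array on both HA arrays by every probe set. Probe set 1425484_at had signals of 358.8 in CL4-TCR, 617 in VILLIN-HA/CL4-TCR and 349.5 in Villin-HA + CL4-TCR, with log2 differences of 0.78 and -0.04 from the CL4-TCR array. Probe set 1442039_at had 175.5, 269 and 110.6, or log2 differences of 0.62 and -0.67. By these probe sets the VILLIN-HA/CL4-TCR array was the highest. Probe set 1425483_at had 45.2, 34.9 and 86.4, or -0.37 and 0.93, with the VILLIN-HA/CL4-TCR array the lowest. Between the HA arrays the Tox probe sets split, with log2 differences (positive where VILLIN-HA/CL4-TCR is higher) of 0.82, 1.28 and -1.31. No direction can be given for Tox between them.

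Prdm1 and Bhlhe40 separated the HA arrays most among the members. Prdm1 had signals of 28.7 in CL4-TCR, 23.1 in VILLIN-HA/CL4-TCR and 214.5 in Villin-HA + CL4-TCR. It lay below the floor on the first pair and was at least 6.77-fold higher in Villin-HA + CL4-TCR than on either. Bhlhe40 had 4.2, 237.7 and 2435.4 in the same array order. It was below the floor in CL4-TCR, at least 7.50-fold higher in VILLIN-HA/CL4-TCR and at least 76.8-fold higher in Villin-HA + CL4-TCR. The HA arrays were both above the floor, and the VILLIN-HA/CL4-TCR array was 10.2-fold lower than the Villin-HA + CL4-TCR array. Between the HA arrays Bhlhe40 and Prdm1 ranked 41st and 84th from the lower end of 12081 measured genes.

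Both genes are also expressed outside CD8 T cells, Prdm1 in plasma cells and some myeloid cells and Bhlhe40 in activated myeloid cells. The 6 plasma cell markers had summed signals of 1695.9 in CL4-TCR, 2075.5 in VILLIN-HA/CL4-TCR and 2365.9 in Villin-HA + CL4-TCR. Most of each sum is Xbp1, a factor of secretory cells, with 1520.8, 1695.4 and 2036.4. Derl3, a gene of protein quality control in secretory cells, had 50, 110.3 and 182.8, and was highest in Villin-HA + CL4-TCR, as Prdm1 was, at 3.66-fold above CL4-TCR. The joining-chain gene Jchain (61, 177.7 and 74.9) and Mzb1 (36.5, 69.3 and 28.9) were highest in VILLIN-HA/CL4-TCR, and Sdc1 and Tnfrsf17 were below the floor throughout. Of the 11 macrophage and dendritic cell markers, 5, 8 and 7 were above the floor in that array order. Lyz2 (84.5, 817.3 and 312.2), Csf1r (40.9, 384.1 and 125) and C1qb (18.1, 148.6 and 44.6) were past 2-fold between the HA arrays and highest in VILLIN-HA/CL4-TCR. C1qa (4, 36 and 29.6) and C1qc (3.1, 44.3 and 3) were above the floor in VILLIN-HA/CL4-TCR alone. Itgax (38.9, 43.5 and 430.7) and Cd68 (39.5, 49.1 and 106.3) were past 2-fold between the HA arrays and highest in Villin-HA + CL4-TCR, as Prdm1 and Bhlhe40 were. Adgre1 (33.3, 40.1 and 64.6) was also highest there, short of 2-fold. Cd14 (5.3, 5.2 and 50.8) was above the floor in Villin-HA + CL4-TCR alone. Its difference from the other arrays was a lower limit set by the floor that neither reaches 2-fold nor excludes it. The neutrophil markers were above the floor in Villin-HA + CL4-TCR alone, as Prdm1 was. The summed skeletal muscle markers (79.9, 109.4 and 4944.1) and stromal and endothelial markers (109, 99.5 and 847.6) were also highest there. The part of plasma cells, myeloid cells, neutrophils, muscle and stroma in the signals of Prdm1 and Bhlhe40 was not tested.

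Zeb2 gave no difference past 2-fold above this floor. Probe sets 1422748_at, 1434298_at, 1454200_at and 1456389_at lay below the floor on all arrays, with signals from 0.4 to 22. Probe set 1458941_at had 36.9 in CL4-TCR, 20.7 in VILLIN-HA/CL4-TCR and 41.4 in Villin-HA + CL4-TCR, at or near the floor throughout. A change of Zeb2 below the floor would not be detectable.

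For VILLIN-HA/CL4-TCR against CL4-TCR, 6 members were measured, of which 3 were higher (Tox2, Bhlhe40 and Tbx21) and 1 lower (Eomes), with a median log2 difference of 1.13 against -0.04 over all measured genes. Over all 11260 measured genes, 14.1% lay past 2-fold, 7.43% higher and 6.63% lower. For Villin-HA + CL4-TCR against CL4-TCR, all 7 were measured, with 4 higher (the same 3 and Prdm1) and 1 lower (Eomes), against 21.4% of 12196 genes past 2-fold, 11.9% higher and 9.53% lower. The members' median was 1.95, against 0.06 over all. These comparisons share the CL4-TCR array, so their shared directions are not separate observations. The members were also chosen with earlier results of these data known, so their counts and medians beside all genes are descriptive and not independent evidence. For VILLIN-HA/CL4-TCR against Villin-HA + CL4-TCR, 1 of 7 was higher (Eomes) and 3 lower (Bhlhe40, Prdm1 and Tox2), against 15.1% of 12081 genes, 6.14% higher and 8.95% lower.

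At a 3-fold threshold, 2 of 7 (Bhlhe40 and Prdm1, both lower) were past it between the HA arrays, against 4.23% of genes. Counted by probe set, 5 of 9 measured member probe sets were past 2-fold in the first comparison, against 12.8% of all measured probe sets. In the second it was 6 of 11, against 21.5%, and between the HA arrays 7 of 11, against 15.7%. At 3-fold the last count was 3 of 11, against 4.15%. Probe sets of 1 gene share their transcript and are not independent.

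**Figure D2:**
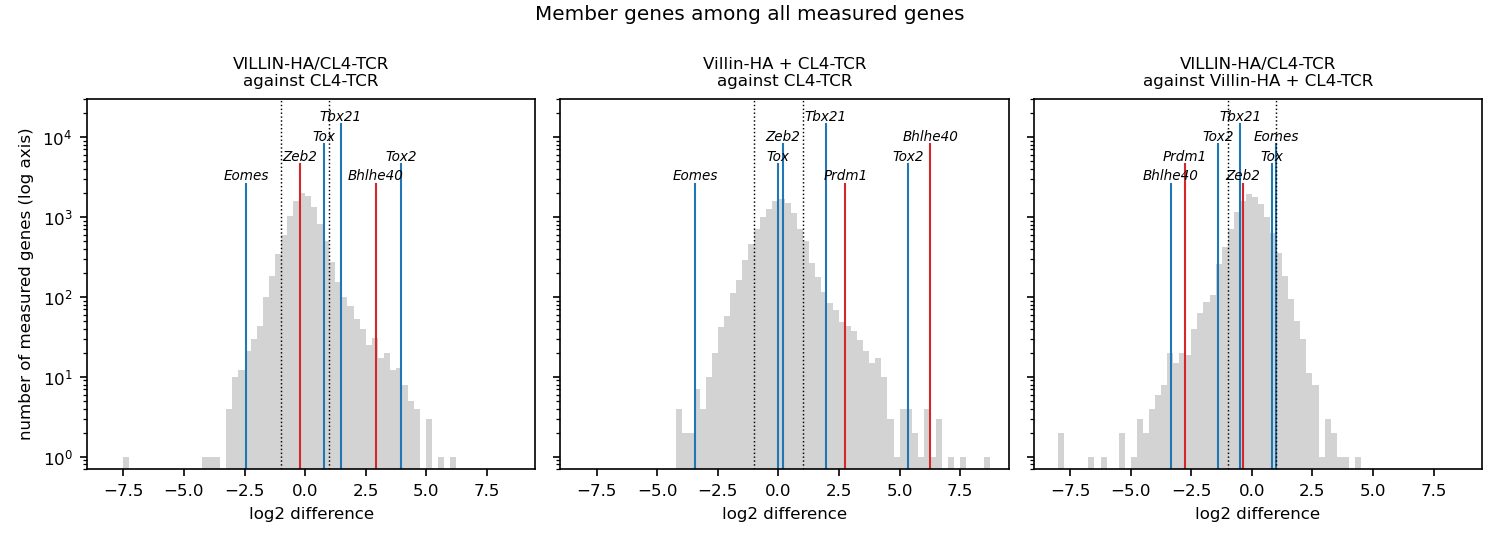
Log2 differences of the member genes (vertical lines) among all measured genes (grey bars, number of genes per 0.25 on a log axis) in the 3 comparisons. Red lines are genes whose lower signal is at the floor, blue lines are measured on both arrays, line heights only separate the labels, and dotted lines mark 2-fold. Eomes lies in the lower tail and Tox2 and Bhlhe40 in the upper tail against CL4-TCR, at -3.44, 5.36 and 6.26 for Villin-HA + CL4-TCR.

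Genes with the most similar pair of log2 differences from CL4-TCR were looked up among the genes above the floor on all arrays. Over 3 arrays such a likeness is weak, and the number of genes within a distance of 0.25 on the log2 scale shows how weak. For Tbx21 they were Fen1 and Tcf19, at distances of 0.01 and 0.02, with 21 genes within 0.25. For Eomes they were Gm11346 and Lypd6b, at 0.24 and 0.34, with 1 gene within 0.25. For Tox2 they were Cdca5 and Pclaf, at 0.56 and 0.66, with no gene within 0.25. For Tox they were Ppat and Hnrnpul1, at 0.04 each, with 174 genes within 0.25. None is given for Bhlhe40, Zeb2 and Prdm1, which lie below the floor on at least 1 array, so that the floor sets their distances.

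The 5 lists of related genes set beside the members hold 107 names, of which 99 were found. Their counts are to be read beside the shares of all measured genes past 2-fold. These were 14.1% for VILLIN-HA/CL4-TCR and 21.4% for Villin-HA + CL4-TCR, each against CL4-TCR, and 15.1% between the HA arrays. Of 23 T-box, Tox, Blimp-1 and Zeb relatives and partners found, 9 were below the floor on all arrays, among them Tox3 and the Bhlhe40 relative Bhlhe41. None of 11 measured relatives was past 2-fold in VILLIN-HA/CL4-TCR, against 14.1% of all measured genes, which at so few genes is not a result about the relatives. In Villin-HA + CL4-TCR 3 of 14 were past it, a share near the 21.4% of all measured genes and so not a result about the relatives. All 3 were lower than in CL4-TCR: Tbx6, a T-box factor of the embryo (at least 3.41-fold), Mga, a large protein with a T-box (2.81-fold), and Prdm10 (at least 2.70-fold). Other probe sets of Mga and Prdm10 fell short of 2-fold, down to log2 differences of -0.44 and -0.25. Zeb1, the relative of Zeb2 known from naive and memory cells, had signals of 821.9 in CL4-TCR, 686 in VILLIN-HA/CL4-TCR and 505.2 in Villin-HA + CL4-TCR, all within 2-fold.

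Among regulators that act beside or upstream of the members, 7 of 27 measured were higher and 3 lower in VILLIN-HA/CL4-TCR than in CL4-TCR. The share of all measured genes past 2-fold was 14.1%, and the median log2 difference of the regulators was 0.12. Irf4, a factor induced by receptor signals, was 17.9-fold higher. The nuclear receptor genes Nr4a1 and Nr4a3, also induced by such signals, were 15.1-fold and 7.33-fold higher, and Nr4a2 at least 10.5-fold by its brightest probe set, with its probe sets ranging from -0.26 to 3.39 on the log2 scale. In Villin-HA + CL4-TCR 10 of 28 were higher and 5 lower (median 0.30), but 8 higher and 7 lower with a median of -0.02 when arrays were scaled to 1 median. By its brightest probe set Nr4a2 was at least 57.5-fold higher (range -0.25 to 5.85), Nr4a1 10.3-fold, Il2ra, the high-affinity interleukin 2 receptor chain, at least 9.29-fold and Irf4 6.83-fold, the other probe set of Irf4 having a log2 difference of 0.38.

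Between the HA arrays, 5 of 28 regulators were higher and 5 lower in VILLIN-HA/CL4-TCR. Id3, an inhibitor of E proteins linked to memory cells, had signals of 457.8 in CL4-TCR, 2159.6 in VILLIN-HA/CL4-TCR and 222.3 in Villin-HA + CL4-TCR. It was 9.71-fold higher in VILLIN-HA/CL4-TCR than in Villin-HA + CL4-TCR, opposite to Prdm1 in this comparison. Id3 was also 4.72-fold higher in VILLIN-HA/CL4-TCR than in CL4-TCR, although Prdm1 was below the floor on both of these arrays. Bach2, a repressor of effector genes, was 4.96-fold higher by its brightest probe set, with another at -0.85 on the log2 scale. Il2rb, a receptor chain for interleukin 2, was 3.21-fold lower, while its other probe set had a log2 difference of 0.01.

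Genes known to depend on the T-box factors divided the HA arrays. In VILLIN-HA/CL4-TCR 5 of 19 measured were higher and 5 lower than in CL4-TCR, with a median log2 difference of 0.65. The chemokine gene Xcl1 was at least 33.7-fold and the TNF family ligand gene Tnfsf11 at least 12.2-fold higher, while Klrd1, an NK receptor chain, was 12.0-fold and Il18r1, an interleukin 18 receptor chain, 7.10-fold lower. In Villin-HA + CL4-TCR 14 of 21 were higher and 2 lower, with a median of 1.54. The granzyme genes Gzmb (at least 381-fold) and Gzma (201-fold), the interferon gamma gene Ifng (at least 19.9-fold) and the NK receptor gene Klrc1 (at least 17.0-fold) led. The HA arrays themselves differed in 13 of 22 of these genes, with 2 higher and 11 lower in VILLIN-HA/CL4-TCR and a median of -0.85, against -0.06 over all measured genes.

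Tbx21 lay within 2-fold between those arrays, while Gzmb had signals of 14.6 in CL4-TCR, 49.3 in VILLIN-HA/CL4-TCR and 12078.3 in Villin-HA + CL4-TCR. Cxcr3, a chemokine receptor gene that T-bet activates, had 784.1, 334.9 and 2753.1 in the same order. By this probe set, its brightest, it was the lowest in VILLIN-HA/CL4-TCR, where Tbx21 was 2.77-fold above CL4-TCR. Prf1, the perforin gene, by its brightest probe set had 525, 98.9 and 207.9, and was highest in CL4-TCR, as Eomes was. Cxcr3 and Prf1 were picked after their values were seen. Most of their list went the other way from Prf1 in Villin-HA + CL4-TCR, with 14 of 21 higher than in CL4-TCR and 2 lower. Whether these genes follow either T-box factor was not tested.

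Genes of the Tox and exhaustion programme were higher on both HA arrays, with 11 of 13 measured higher in VILLIN-HA/CL4-TCR and 14 of 14 in Villin-HA + CL4-TCR, none lower, and medians of 3.43 and 2.59. The list holds Pdcd1 and Tnfrsf9, genes that the study is known to have selected on these arrays, so its direction is not independent evidence. It also holds the Nr4a genes, which receptor signals induce. Tox itself was within 2-fold of CL4-TCR on both HA arrays by every probe set. Whether the list reflects a Tox programme was not tested. The inhibitory receptor gene Cd160 was 21.7-fold and 27.1-fold higher. Tnfrsf9, which encodes 4-1BB, was 16.1-fold higher in VILLIN-HA/CL4-TCR. Ikzf2, which encodes Helios, had signals of 360.7 in CL4-TCR, 5756.9 in VILLIN-HA/CL4-TCR and 2029.7 in Villin-HA + CL4-TCR. Ctla4, an inhibitory receptor gene, was at least 131.9-fold higher in Villin-HA + CL4-TCR. Between the HA arrays 4 were higher and 5 lower of 14 in VILLIN-HA/CL4-TCR. Ctla4 was 9.30-fold lower there, and Cd244a and Entpd1, encoding a further receptor and the enzyme CD39, 5.45-fold and 4.75-fold lower by their brightest probe sets, the other measured probe set of each falling short of 2-fold at -0.57 and -0.42 on the log2 scale.

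Genes repressed by Blimp-1 or Zeb2, or lost on effector differentiation, went both ways. In VILLIN-HA/CL4-TCR, where Prdm1 was below the floor, 4 of 16 measured were higher and 5 lower. Their median of 0.46 has no settled sign, as it was -0.70, with 2 higher and 5 lower, with the floor at the 65th percentile. Klf2, which keeps T cells recirculating, was 5.69-fold and Il7r, the interleukin 7 receptor gene, 4.06-fold lower, and Slamf6, a marker of stem-like cells, and Id3 were 5.01-fold and 4.72-fold higher. In Villin-HA + CL4-TCR, where Prdm1 was above the floor, 3 of 16 were higher and 5 lower (median -0.17). Ccr6 and Slamf6 were 4.65-fold and 3.94-fold higher and Klf3 and Lef1 4.24-fold and 2.54-fold lower. Slamf6 had a probe set at a log2 difference of 0.60, and the probe sets of Klf3 ranged from -2.09 to 0.24. Between the HA arrays 1 of 17 was higher (Id3) and 3 lower in VILLIN-HA/CL4-TCR, against 15.1% of all measured genes past 2-fold. The lower ones were Ccr7 (3.63-fold), Klf2 (3.09-fold) and Il7r (2.71-fold).

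**Figure D3:**
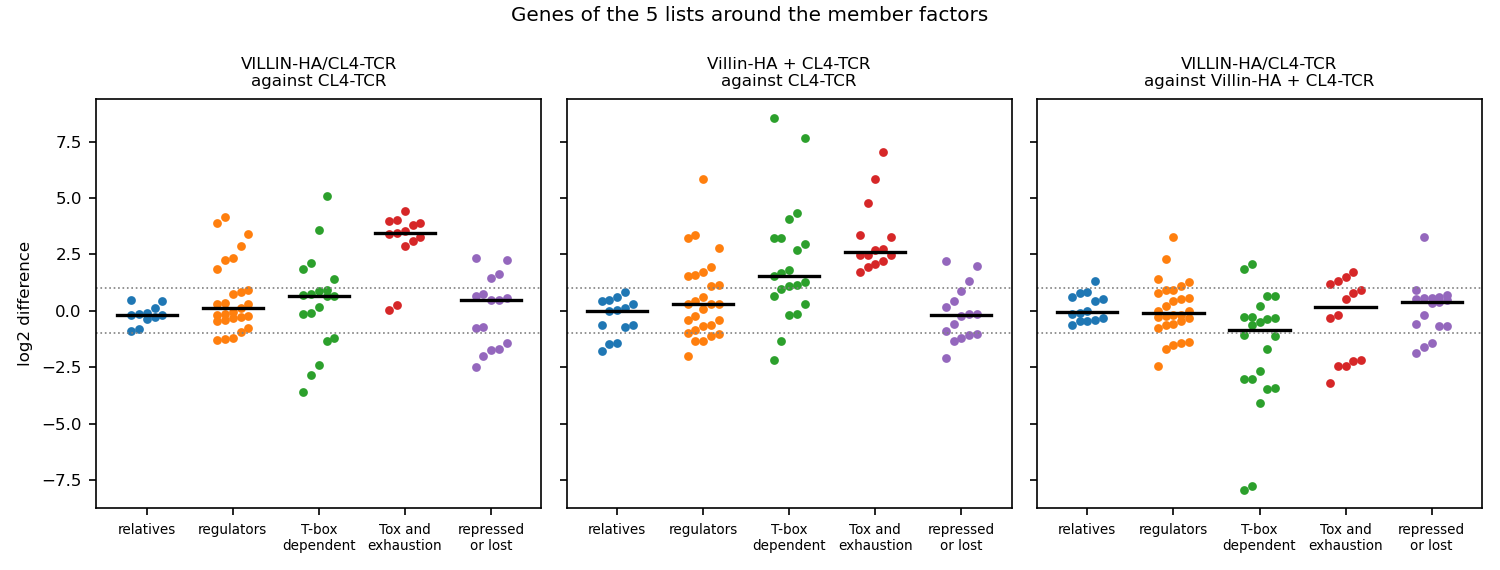
Log2 differences of the measured genes of the 5 lists in the 3 comparisons, 1 point per gene, with the list median as a black bar and dotted lines at 2-fold. Genes of the Tox and exhaustion programme lie mostly above 2-fold against CL4-TCR (medians 3.43 and 2.59), and the T-box dependent genes have a median of -0.85 between the HA arrays.

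The lists share 9 genes, among them Id3, Il2rb, Lef1 and the Nr4a genes, so their counts are not separate. Of the named list genes with several measured probe sets, another probe set fell short of 2-fold for 1 of 6 in the first comparison, 6 of 9 in the second and 6 of 7 between the HA arrays.

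The called differences of the members kept their direction under every processing alternative that measured them, while Tox and Zeb2, both within 2-fold in Villin-HA + CL4-TCR, took either sign there. Eomes lay between -2.47 and -2.33 on the log2 scale in VILLIN-HA/CL4-TCR, and between -3.89 and -3.23 in Villin-HA + CL4-TCR, against CL4-TCR. Tbx21 lay between 1.28 and 1.53 and between 1.73 and 2.00. Bhlhe40, whose CL4-TCR signal is below the floor, ranged from 1.79 to 4.72 and from 5.15 to 8.08 with the floor and its alternatives. Prdm1, below the floor on the other arrays, ranged from 1.64 to 2.90 in Villin-HA + CL4-TCR relative to the array without HA, and from -3.22 to -1.64 between the HA arrays, the smallest sizes being with the floor at the 65th percentile. Tox2 had 1.99 and 3.10 when its probe sets were averaged. It had at least 0.84, a bound set by the floor, in Villin-HA + CL4-TCR without the probe set that can match several transcripts. Between the HA arrays, Eomes was at 0.90, short of 2-fold, with a pseudocount in place of the floor, and Tox at 1.08 with arrays scaled to 1 median. Tox2 was at -0.84 there, a bound set by the floor, without the less specific probe set. Zeb2 reached the 2-fold line there, lower in VILLIN-HA/CL4-TCR, with the floor at the 25th percentile.

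**Figure D4:**
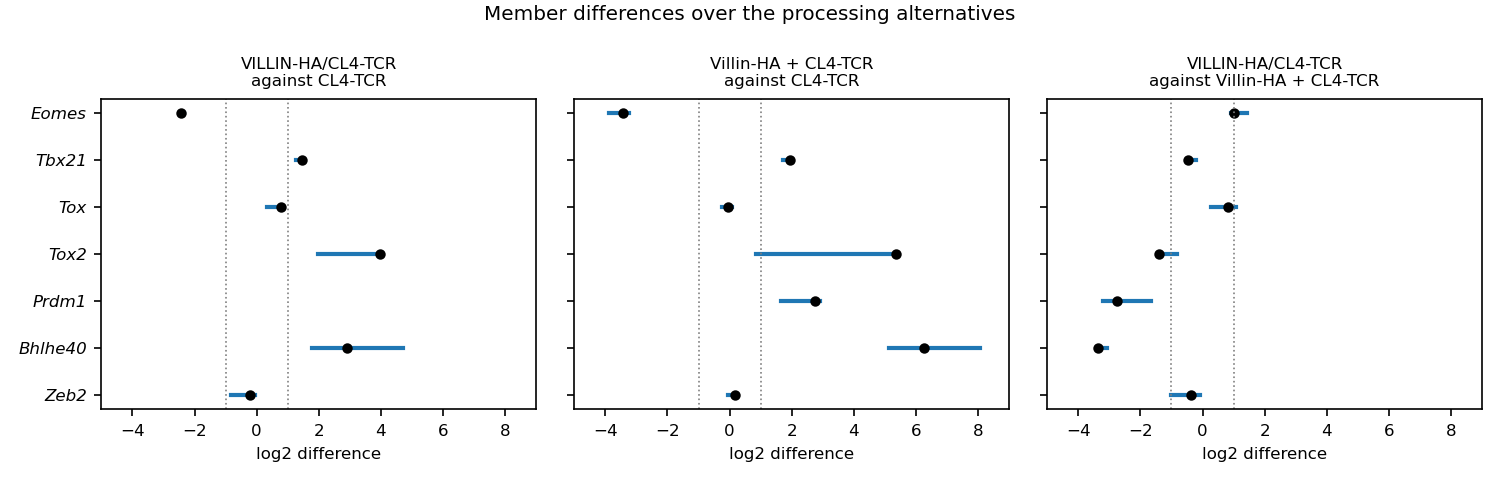
Log2 difference of each member gene (black point) with its range over the processing alternatives (blue line) in the 3 comparisons, dotted lines marking 2-fold. Eomes, Tbx21 and Bhlhe40 stay on 1 side of the 2-fold lines against CL4-TCR. The range of Tox2 in Villin-HA + CL4-TCR reaches down to 0.84, a bound set by the floor.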

How the data were processed

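Each of the 3 arrays was hybridised with biotin-labelled cRNA from 6 µg of RNA, per the labels' protocols. The deposited values are MAS5 signals, that is intensity values, per the submitters' processing notes, on a linear scale with equal 2% trimmed means, which hides a change common to most transcripts. Its version and settings were not stated. Detection calls were not used here.

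Of 45101 probe sets, 34958 had 1 gene symbol in the platform annotation, 932 several and 9211 none, and 34754 were updated through Entrez identifiers to the RefSeq table of GRCm38.p6. A gene is represented by its probe set of highest mean signal. Values were computed with Python 3.11.15, pandas 2.3.3 and numpy 2.4.6. The calling step was run on simulated data holding only changes well past 2-fold in genes well above the floor, and false calls were not counted. That run cannot speak to calls near 2-fold or to differences bounded by the floor. The number of arrays limits the precision. No test was run, since each group has 1 array.

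The members and lists were chosen with earlier results of these data known. The named genes are all members, up to 4 of the largest differences past 2-fold per list and comparison, and the 2 nearest genes per member, given for members above the floor on all arrays. Genes described beside these (marker genes, Zeb1, Tox3, Bhlhe41, Cxcr3, Prf1) were chosen after their values were seen. Alternatives were floors at the 25th and 65th percentile (9.0 and 68.6), a pseudocount of 16, scaling to 1 median, quantile normalization, the mean of probe sets, leaving out probe sets that can match several transcripts, and 3-fold.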

Additional observations from a re-analysis of the deposited data

How the results depend on the processing

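Of 136 recomputed member differences, 122 moved by less than the spread between probe sets, 14 moved by more, and no called value changed sign. At 3-fold, 2 member genes and 3 member probe sets were past the threshold between the HA arrays, because the threshold is higher. In the list of relatives, 1 gene was past 2-fold between Villin-HA + CL4-TCR and CL4-TCR with the floor at the 65th percentile, where fewer genes were measured (9). With the arrays scaled to 1 median, 2 relatives were past it between the HA arrays. Some medians of the lists turned sign. The Blimp-1 and Zeb2 list in VILLIN-HA/CL4-TCR went from 0.46 to -0.70 with the floor at the 65th percentile, and the regulators in Villin-HA + CL4-TCR from 0.30 to -0.02 with the arrays scaled to 1 median. The regulators between the HA arrays went from -0.10 to 0.26 with that scaling, and the relatives there from -0.06 to 0.16 with it and to 0.44 with the floor at the 65th percentile. Scaling to 1 median also moved the median log2 difference of all genes from 0.06 to -0.14 for Villin-HA + CL4-TCR compared with CL4-TCR and from -0.06 to 0.19 between the HA arrays. The higher share of all calls went from 55.6% to 38.2% and from 40.7% to 67.3%, and in those comparisons 4 members were higher and 1 lower, and 2 higher and 3 lower. No paired analysis was possible because each group has 1 array, and leaving out an array leaves no comparison. Signals near the floor, as for Zeb2 and for Prdm1 on 2 arrays, limit what could be detected.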
